A study of Mus musculus with 24 samples.

Results

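Activator protein 1 (AP-1) genes and other immediate early genes were followed through the maturation of mouse bone marrow eosinophils, in 10 genes of the 24982 gene symbols in the count tables. The 10 are Fos, Fosb and Fosl2 of the Fos family, Jun, Junb and Jund of the Jun family, Atf3, Egr1, Ier2 and Dusp1. They were chosen by measured values, namely high levels in the 4 steady state libraries that carry the number 3, so levels in those libraries against the others are a description, with no test. The comparisons of stages and conditions are given with those 4 libraries and, where steady state enters, also without them. The cells were sorted by flow cytometry into 4 stages of maturation, I to IV, from wild type C57BL6 mice that were either untreated (steady state) or injected into the peritoneum with 400 ng of recombinant interleukin 33 (IL-33) daily over 7 days. There were 8 groups, 1 for every stage in either condition, and each had 3 libraries, numbered 1 to 3, and each library held cells pooled from 3 mice, whose age the labels do not give. Magnetic beads first took out cells with CD45R, NK1.1, CD90.2 or Ly6G, and antibodies to CD200R3, Pir-A/B, CD117, CD55, Siglec-F, F4/80 and CD29 then separated the stages. The libraries are called biological triplicates in the series' design text, but the labels do not say which mice went into which pool, nor whether the 4 stages of a number came from the same mice.

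AP-1 is a dimer of basic leucine zipper proteins, in which a Jun protein pairs with another Jun protein, with a Fos protein or with an ATF protein and binds short palindromic DNA elements. Most of its genes are immediate early genes: they are transcribed within minutes of a stimulus from factors already present in the cell, through mitogen-activated protein (MAP) kinases, and their messenger RNAs are short-lived. Growth factors, cytokines, stress and the handling of tissue can all induce them. IL-33 is a cytokine of damaged epithelium whose receptor is carried by eosinophils and their progenitors, and it signals through MAP kinases and NF-kappaB.

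Gene counts summed to between 8335138 and 14909453 reads per library. Levels below are gene counts relative to library size (CPM), with library sizes adjusted by TMM, a factor computed over all genes. A member is called when edgeR's quasi-likelihood test gave an adjusted p below 0.05 over all genes tested, which were 12743 with all libraries and 12913 without the steady state libraries numbered 3. All 10 members passed the filter on low counts. Eosinophil markers (9 genes, among them the granule genes Epx and Prg2) summed to between 4573 and 40013 scaled CPM per library and were lowest in stage IV of steady state, at 4573 to 8055. Reads outside annotated genes were 21.6% ± 3.69 (SD) of the total over 12 untreated libraries, against 12.5% ± 2.50 (SD) over the 12 IL-33 libraries, with no overlap. In bulk samples, fewer cells of a type and less RNA per cell cannot be told apart.

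The 3 Jun genes encode the obligate partners of Fos proteins. Jun (chr4:95049034-95052222), the strongest activator among them, overlaps the antisense RNA Junos. Junb (chr8:84974484-84978718), which often restrains Jun, ends next to and overlaps Prdx2. Jund (chr8:70698949-70700616), the family member least bound to stimulation, overlaps the antisense RNA Gm11175. Fos (chr12:85473890-85477273) and Fosb (chr7:19302696-19310051) are rapidly induced activators, and Fosl2 (chr5:32135801-32157842), also called Fra-2, is a later and longer-lived Fos protein. Atf3 (chr1:191170296-191218039) is a stress-induced factor that mostly represses, and Egr1 is a zinc finger factor induced by the same MAP kinase signals. Ier2 (chr8:84661331-84662852) is an immediate early gene of the nucleus, and Dusp1 (chr17:26505590-26562128) encodes a phosphatase that switches MAP kinases off. Positions are those of GENCODE M21 on GRCm38. Reads of overlapping partners cannot be told apart, because the library method does not mark the strand. Dusp1 also shares its annotated span with Ergic1.

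Promoters of 5 members are printed because these genes were high together in the libraries numbered 3 and differ in the elements near their starts. RefSeq promoters on GRCm38.p6, from 250 bases before to 50 bases from the annotated start, were matched for 8 of the 10 members, all but Egr1 and Ier2. Capitals mark matches, on either strand, to the full cAMP response element TGACGTCA, its core TGACG, the Jun-type AP-1 element TGACATCA, the classical AP-1 element TGANTCA, the serum response element's CArG box, and TATAAA. The core is part of the full element. The windows are Fos at chr12:85473640-85473939, plus strand, Jun at chr4:95052173-95052472, minus strand, Junb at chr8:84978699-84978998, minus strand, Atf3 at chr1:191183284-191183583, minus strand and Dusp1 at chr17:26508423-26508722, minus strand. Each is written in the direction of the gene.
Fos: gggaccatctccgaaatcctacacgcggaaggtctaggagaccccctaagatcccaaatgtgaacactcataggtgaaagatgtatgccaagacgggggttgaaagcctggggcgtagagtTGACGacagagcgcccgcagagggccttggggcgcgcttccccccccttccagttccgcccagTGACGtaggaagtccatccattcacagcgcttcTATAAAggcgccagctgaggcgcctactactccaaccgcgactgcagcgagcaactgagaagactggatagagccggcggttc
Jun: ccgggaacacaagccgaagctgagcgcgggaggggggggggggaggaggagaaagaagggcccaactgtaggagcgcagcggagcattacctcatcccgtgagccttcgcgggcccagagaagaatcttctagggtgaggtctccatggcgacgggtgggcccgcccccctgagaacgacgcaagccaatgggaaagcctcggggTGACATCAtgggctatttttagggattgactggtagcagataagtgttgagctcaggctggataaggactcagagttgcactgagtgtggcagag
Junb: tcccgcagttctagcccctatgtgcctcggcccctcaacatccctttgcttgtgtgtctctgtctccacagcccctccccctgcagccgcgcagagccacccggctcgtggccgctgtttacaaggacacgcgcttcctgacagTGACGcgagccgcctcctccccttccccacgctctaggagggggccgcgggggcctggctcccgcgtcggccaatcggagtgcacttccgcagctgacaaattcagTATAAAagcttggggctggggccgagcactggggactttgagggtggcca
Atf3: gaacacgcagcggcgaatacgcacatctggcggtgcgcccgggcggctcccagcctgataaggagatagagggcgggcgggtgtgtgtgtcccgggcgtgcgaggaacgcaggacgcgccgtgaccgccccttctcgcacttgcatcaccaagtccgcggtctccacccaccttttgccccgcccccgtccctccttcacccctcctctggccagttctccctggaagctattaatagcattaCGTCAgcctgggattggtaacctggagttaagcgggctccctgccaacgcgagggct
Dusp1: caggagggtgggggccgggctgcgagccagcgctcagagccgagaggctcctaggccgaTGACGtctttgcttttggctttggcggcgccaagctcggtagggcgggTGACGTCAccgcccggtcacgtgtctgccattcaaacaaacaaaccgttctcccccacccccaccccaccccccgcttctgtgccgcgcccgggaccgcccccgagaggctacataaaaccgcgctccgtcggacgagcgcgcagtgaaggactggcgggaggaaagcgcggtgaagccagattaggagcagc
With the start base counted as 0, Dusp1 held the full element TGACGTCA from -143, which is present in 1.79% of all 32851 promoters of the same length, and a further core from -191. Jun held TGACATCA from -45, an element in 3.62% of all promoters. Fos held the core TGACG from -129 and again from -66, and TATAAA from -33. Junb held the core from -106, and Atf3 held it on the other strand, as CGTCA from -7. Counting Fosb, whose core starts at -60, 5 of the 8 members with a promoter held TGACG, against 20.8% of all promoters. TATAAA was found in 2 of 8 members, against 13.6% of all promoters, and in Junb it began at 0, the start base itself. No member's window held TGANTCA or a CArG box, which were in 7.81% and 1.63% of all promoters, and this says only that those letters are not in these windows. The starts used for Atf3, Dusp1 and Fosl2 lie inside the longer GENCODE spans given above, and the window used for Jund, from 70697489 to 70697788, ends before the GENCODE start of Jund.

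In steady state the library numbered 3 held more of these transcripts than numbers 1 and 2 in nearly every stage. Over the 10 members and 4 stages, number 3 lay above both other libraries in 38 of 40 pairs, the exceptions being Fosl2 in stage III and Jund in stage IV. The ratio of number 3 to the mean of numbers 1 and 2, as a median over the 4 stages, was highest for Atf3 at 16.5, followed by Fosb at 8.59 and Egr1 at 5.42. It was 2.98 for Dusp1, 2.83 for Jun, 2.65 for Fos and 2.37 for Junb. It was lowest for Jund at 1.95, Ier2 at 1.69 and Fosl2 at 1.56. Ratios of the members are taken within each gene and so do not compare levels between genes. For Jun the 4 libraries numbered 3 held 3331 to 5018 scaled CPM and the other 20 libraries 875 to 2142. For Atf3 the same 4 libraries held 165 to 1063 and the other 20 held 1.33 to 52. Jun and Atf3 were the 2 members whose 4 libraries numbered 3 all lay above all other 20 libraries. For Fos, with 3189 to 4468 in these 4 libraries, 1 of the other 20, stage IV number 1 under IL-33, reached that range. For Egr1, 10 of the other 20 lay at or above the lowest library numbered 3.

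**Figure D1:**
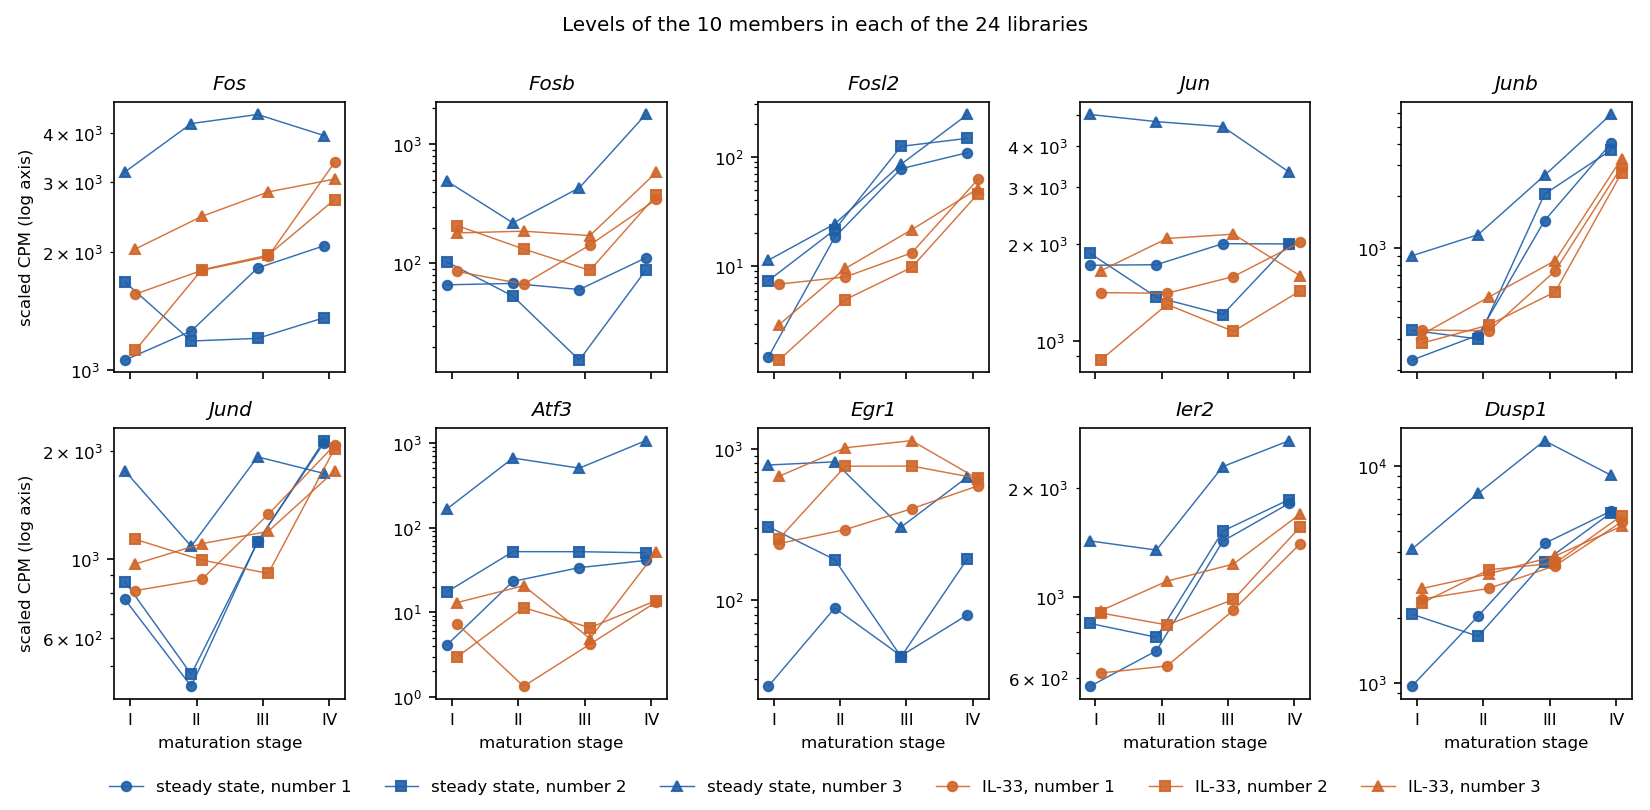
Scaled CPM (log axis) of each of the 10 members in all 24 libraries by maturation stage, with steady state in blue, IL-33 in orange and the library number as marker shape. Lines join libraries of 1 condition and number. The blue triangles (steady state, number 3) are highest throughout for Jun and Atf3, while Junb and Fosl2 climb with stage in both conditions.

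**Figure D2:**
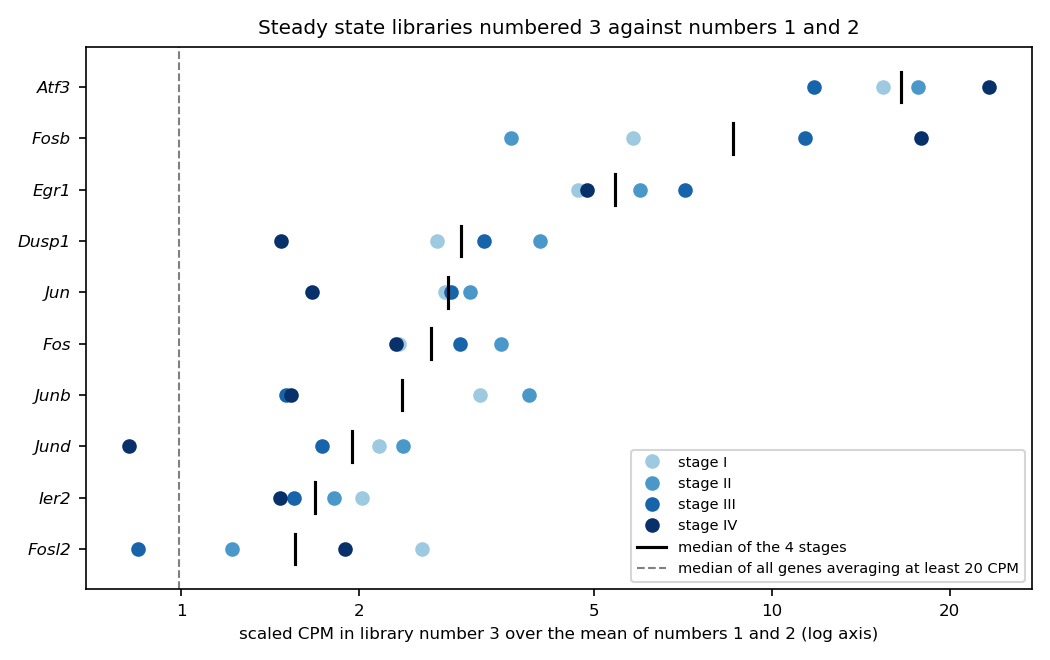
Ratio of scaled CPM in the steady state library numbered 3 to the mean of numbers 1 and 2 (log axis), 1 point per stage, with the median of the 4 stages as a black bar and the median of all genes averaging at least 20 CPM (0.993) as a dashed line. Atf3 ranges from 11.8 to 23.3, and Fosl2 and Jund each have 1 stage below 1.

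The same libraries differed in other genes as well. Over 7229 tested genes averaging at least 20 CPM, the median ratio was 0.993, and 9.70% of them lay above both other libraries in all 4 stages, as 8 of the 10 members did. Of 24 other immediate early genes at that level, 17 lay above in all 4 stages, with a median ratio of 2.72. Nfkbiz, an inducible regulator of NF-kappaB, had ratios of 17.3, 10.6, 9.36 and 22.8 in stages I to IV, and Tnfaip3, a brake on NF-kappaB, 16.5, 17.5, 14.2 and 11.2. By contrast, MAP kinases and upstream factors of AP-1 had a median ratio of 0.965, with 1 of 22 above in all stages. Heat shock genes were split. Their median ratio was 0.918, but 5 of 11 (45.5%) lay above in all stages, against the 9.70% of all genes. Dnajb4, 1 of these 5, had ratios of 3.81, 3.39, 6.33 and 4.80 in stages I to IV, whereas Hspa8 had 0.814, 0.700, 0.724 and 0.849. These lists were assembled with earlier results in view and are given as counts, and the genes named from them, like Ddx3y, were chosen after their values were seen. The Y-linked gene Ddx3y lay at 174 to 384 scaled CPM in the 4 libraries numbered 3 and at 35.3 to 86.3 in the other 20. The other Y-linked genes listed overlapped between these libraries. Eif2s3y lay at 108 to 291 and 77.1 to 205, Kdm5d at 20.8 to 40.0 and 8.12 to 61.1, and Uty at 11.2 to 43.8 and 9.08 to 38.4. Neutrophil markers summed to 12972 to 26723 in the libraries numbered 3 and to 6571 to 28914 in the other steady state libraries, and monocyte markers to 791 to 3010 and 779 to 3307. B cell markers summed to 42.4 to 108 and 24.9 to 60.7, and basophil and mast cell markers to 374 to 1578 and 57.4 to 3125. Single markers could differ more. The B cell gene Igll1 lay at 2.17 to 11.1 in the libraries numbered 3 and at 0 to 0.695 in the other 20. The monocyte gene Cd14 lay at 17.6 to 80.4 and 2.31 to 25.6, and the B cell gene Cd79b at 22.7 to 73.0 and 9.42 to 51.8, which both overlapped. What part any of these had in the members' levels was not tested.

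Partitioning each member's log2 level over the 24 libraries set the members in an order. The share that went with library number within condition was 70.1% for Fos, 61.8% for Jun, 59.6% for Fosb and 49.0% for Egr1. It was 41.1% for Atf3, 25.9% for Ier2 and 14.6% for Jund. For Junb it was 8.45% and for Fosl2 4.42%, while the median over all genes averaging at least 20 CPM was 9.22%. Stage carried 80.9% of the variation of Junb, 70.7% of Fosl2, 62.1% of Jund and 57.6% of Ier2, against 0.717% for Jun and a median of 44.4% over all genes. Jun and Fos thus varied mainly between sets of libraries, and Junb and Fosl2 mainly between stages. These shares are a description, since the high levels in the libraries numbered 3 enter them.

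**Figure D3:**
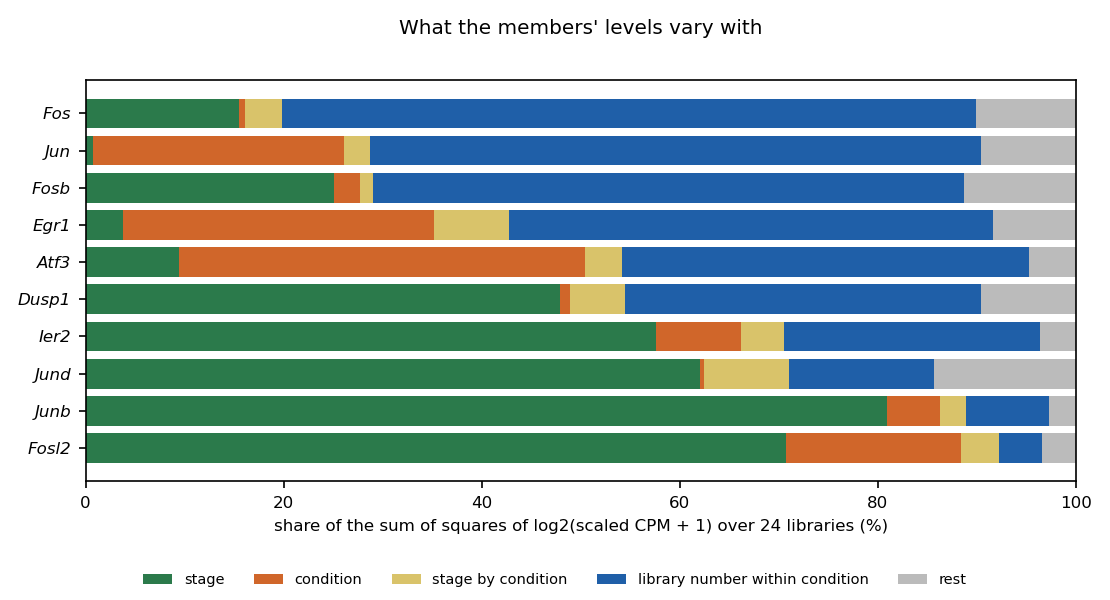
Share (%) of the sum of squares of log2(scaled CPM + 1) over 24 libraries that went with stage, condition, stage by condition, library number within condition and the rest, for each member. The blue part (library number) shrinks from 70.1% in Fos to 4.42% in Fosl2, and the green part (stage) is largest in Junb at 80.9%.

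Across maturation, Junb and Fosl2 rose most, in both conditions, and Jun did not change detectably. In steady state Junb stood at 227, 337 and 904 scaled CPM in the libraries numbered 1, 2 and 3 of stage I, and at 316, 301 and 1198 in stage II. It then stood at 1441, 2049 and 2625 in stage III and at 4008, 3669 and 5887 in stage IV. Each library of stages III and IV lay above every library of stages I and II. Under IL-33 it was 339, 285 and 320 in stage I, 334, 362 and 523 in stage II and 741, 561 and 849 in stage III. At the last stage it reached 2943, 2715 and 3279, above every earlier library of that condition. From stage I to IV Junb was 9.23-fold higher in steady state (log2 3.21 ± 0.48 SE, adjusted p = 1.3e-05) and 9.47-fold higher under IL-33 (log2 3.24 ± 0.48 SE, adjusted p = 9.5e-06), both by edgeR with n = 3 libraries a group. By step, Junb rose from II to III in steady state (log2 1.75 ± 0.46 SE) and from III to IV under IL-33 (log2 2.05 ± 0.46 SE). The steady state step from III to IV (log2 1.15 ± 0.45 SE), whose libraries did not overlap, was not called with all libraries (adjusted p = 0.11). It was called without the libraries numbered 3 (log2 1.23 ± 0.25 SE, adjusted p = 0.0050) and with the library number as a block (adjusted p = 0.0041). Whether a step differs between conditions was not tested. Without the libraries numbered 3 the steady state rise was 13.8-fold.

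Jun in steady state lay at 1717, 1870 and 5018 scaled CPM in stage I and at 1999, 1997 and 3331 in stage IV. Under IL-33 it lay at 1414, 875 and 1651 in stage I and at 2020, 1430 and 1597 in stage IV. Stages overlapped in both conditions, and log2 differences between IV and I were -0.23 ± 0.48 (SE) and 0.36 ± 0.48 (SE), not called. Without the libraries numbered 3 the steady state difference of Jun was 0.18 ± 0.32 (SE), also not called. Jund, with 770, 863 and 1763 in stage I of steady state, stood at 2113, 2142 and 1734 in stage IV. It rose from stage I to IV 1.76-fold in steady state (adjusted p = 0.042) and 2.02-fold under IL-33 (adjusted p = 0.014). The steady state rise of Jund was no longer called without any single library numbered 1 or 2 of stage I or IV (adjusted p between 0.084 and 0.181), or with library totals as the scale (0.181). Without the 4 libraries numbered 3 it was 2.65-fold (adjusted p = 2.1e-05).

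As a result the make-up of the Jun family changed with stage. Per kilobase of exon, so that genes can be compared, Jun made up 49.3% ± 2.59 (SD, n = 3) of the summed level of Jun, Junb and Jund in stage I of steady state and 19.2% ± 2.87 in stage IV. Junb went from 11.2% ± 2.05 to 49.5% ± 5.00. In numbers 1 and 2 alone, Jun made up 49.0% and 46.9% in stage I and 17.2% and 17.9% in stage IV, and Junb 8.98% and 11.7% against 47.9% and 45.5%. Under IL-33, Jun made up 36.1% ± 9.26 in stage I and 17.5% ± 2.24 in stage IV, and Junb 12.1% ± 1.32 and 43.2% ± 3.98. In neither condition did the libraries of stage I and stage IV overlap in either share. The ratio of Junb to Jun reads was 0.132 to 0.180 in stage I and 1.77 to 2.00 in stage IV of steady state, the libraries numbered 3 included. This ratio does not depend on the scaling of the libraries. Under IL-33 it was 0.194 to 0.325 and 1.46 to 2.05. In stage III it was 0.570 to 1.69 in steady state and 0.396 to 0.523 under IL-33, with no overlap.

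**Figure D4:**
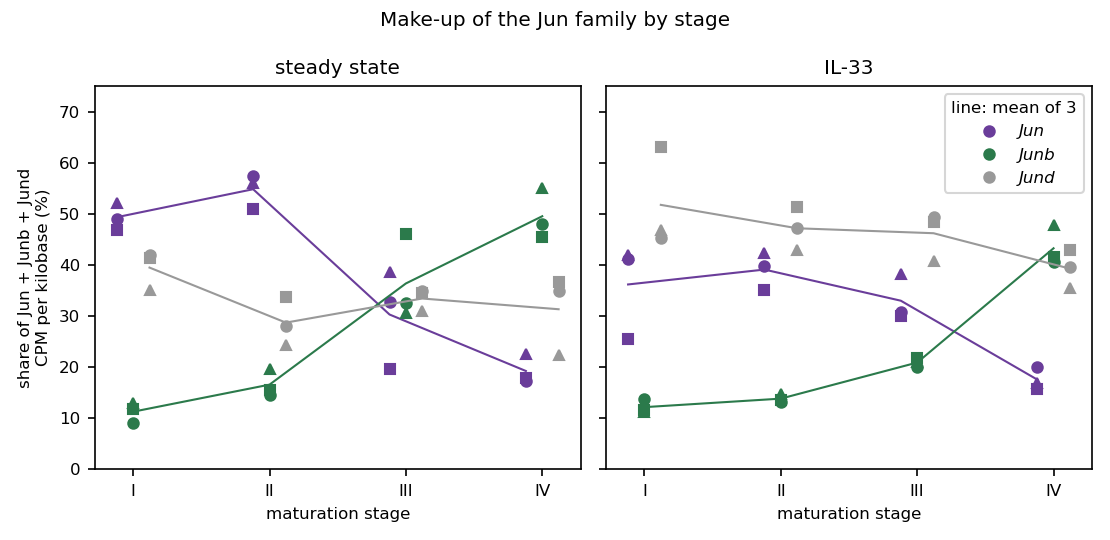
Share (%) of Jun, Junb and Jund in their summed scaled CPM per kilobase, by stage, in steady state (left) and under IL-33 (right), with 1 point per library (marker shape for library number 1, 2 or 3 as circle, square or triangle) and a line through the mean of 3. Jun leads or stands second in stage I and Junb has the largest mean share in stage IV of both conditions.

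Fosl2 rose from stage I to IV in both conditions. In steady state it stood at 1.49, 7.41 and 11.4 scaled CPM in stage I, 18.4, 21.6 and 24.4 in stage II, 77.7, 124 and 85.4 in stage III and 109, 147 and 243 in stage IV. The IL-33 libraries held 6.89, 1.40 and 2.93 in stage I, 8.01, 4.98 and 9.57 in stage II, 13.3, 9.78 and 21.6 in stage III and 62.4, 46.0 and 51.3 in stage IV. The 3 libraries of stage IV lay above all libraries of stages I and II in each condition. From I to IV it was 24.4-fold higher in steady state (log2 4.61 ± 0.58 SE, edgeR adjusted p = 1.4e-06) and higher under IL-33 too (log2 3.81 ± 0.57 SE, adjusted p = 9.4e-06). Its steady state value without the libraries numbered 3 was 28.9-fold. Fos made up 92.1% to 97.8% of its family's summed level per kilobase in every group mean. It stood at 1058, 1673 and 3189 in stage I and 2068, 1356 and 3949 in stage IV of steady state, which overlapped. Under IL-33 Fos stood at 1558, 1122 and 2030 in stage I and at 3373, 2712 and 3058 in stage IV, which did not overlap. That difference (log2 0.96 ± 0.49 SE) was not called with all libraries (adjusted p = 0.12), and was called when the spread was estimated without the steady state libraries numbered 3 (log2 0.99 ± 0.24 SE, adjusted p = 0.0021). Fosb stood at 85.6, 207 and 180 in stage I and 344, 373 and 581 in stage IV under IL-33. In stage IV of steady state it ranged from 87.5 to 1776, the highest value being the library numbered 3.

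Among the other members, Ier2 and Dusp1 rose from stage I to IV in steady state, and Atf3 and Egr1 were not called. Ier2 stood at 568, 847 and 1432 scaled CPM in stage I and 1818, 1863 and 2709 in stage IV of steady state, a 2.24-fold rise (log2 1.17 ± 0.31 SE, edgeR adjusted p = 0.0040) that was 2.64-fold without the libraries numbered 3. Dusp1 stood at 967, 2076 and 4127 in stage I and at 6175, 6063 and 9034 in stage IV, a 2.97-fold rise (log2 1.57 ± 0.50 SE, adjusted p = 0.014). Neither gene's stages overlapped. The call of Dusp1 was lost without stage I number 1 (adjusted p = 0.074) or number 2 (0.052), or stage IV number 3 (0.052). Without all 4 libraries numbered 3 the rise was 4.09-fold (adjusted p = 2.7e-06). Atf3 in steady state went from 4.07, 17.3 and 165 in stage I to 40.9, 50.4 and 1063 in stage IV, an increase within each number, and the difference of log2 2.63 ± 1.37 (SE) was not called (adjusted p = 0.13). With the library number as a block it was called, at log2 2.46 ± 0.50 (SE, adjusted p = 0.00048). Egr1 stood at 26.9, 305 and 779 in stage I and at 79.8, 187 and 649 in stage IV, with a log2 difference of -0.28 ± 0.92 (SE). Over the 6 sets of condition and number, stage IV lay above stage I in all 6 for Fosl2, Junb, Atf3, Ier2 and Dusp1. It did so in 5 for Fos, Fosb and Jund, in 4 for Jun and in 3 for Egr1.

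The number of members called in a stage comparison is read beside the share of all genes called. From stage I to IV, 5 of 10 members rose in steady state (Fosl2, Junb, Dusp1, Ier2 and Jund), where 43.8% of all genes were called, and 5 without the libraries numbered 3 (40.2% of all genes). With the library number as a block 6 were called, which added Atf3 (48% of all genes). Under IL-33, 4 rose (Fosl2, Junb, Jund and Ier2; 44.1% of all genes). When the spread was estimated without the steady state libraries numbered 3, 8 rose (49.8% of all genes), which added Dusp1, Fos, Fosb and Atf3. With all libraries the shares of members called were near those of all genes. Every call of a member from stage I to IV was a rise. The median member changed by log2 1.37 in steady state, where the median gene changed by -0.03. With IL-33 the values were 1.08 and -0.03.

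In the untreated mice, edgeR called 0 members at the first step, from I to II (2 at an unadjusted p below 0.05, 1 by DESeq2; 4.87% of all genes called). Without the libraries numbered 3, Jund was called, lower by log2 -0.82 ± 0.20 (SE, 4.16% of all genes), and with the block 3 were called (8.39% of all genes), namely Fosl2 (log2 1.85), Atf3 (1.95) and Jund (-0.78). From II to III in steady state 4 rose (Fosl2, Junb, Jund and Ier2; 34.6% of all genes), and 5 without the libraries numbered 3 (35.9%), which added Dusp1. The calls of Jund and Ier2 at this step were lost without stage II number 1, stage II number 2 or stage III number 3 (adjusted p 0.074 to 0.136). With the block, Dusp1 (log2 0.996) was also called higher at this step and Egr1 (log2 -1.44) lower, where 4893 of 12743 genes were called. At the last step edgeR called 0 (1 at an unadjusted p below 0.05, 1 by DESeq2; 9.23% of all genes). Without the libraries numbered 3 Junb and Jund were called (6.47%), and with the block Junb (log2 1.16), Fosb (1.74) and Egr1 (1.29) were called (13.8%). Under IL-33, edgeR and DESeq2 called 0 from I to II and 0 from II to III, with 0 at an unadjusted p below 0.05 (0.0942% and 0.0863% of all genes). Without the steady state libraries numbered 3 these steps also had 0 (0.318% and 0.937%), with 0 and 1 members at an unadjusted p below 0.05. From III to IV under IL-33, Fosl2 (log2 1.84 ± 0.52 SE) and Junb rose (29.1% of all genes), and 7 were called when the spread was estimated without the steady state libraries numbered 3 (36.9%). The call of Fosl2 at that step was lost without stage III number 2 (adjusted p = 0.059). The difference of the change from I to IV between conditions was called for 0 members by edgeR and by DESeq2 (0 at an unadjusted p below 0.05; 3.26% of all genes), and for 0 without the libraries numbered 3 (1 at an unadjusted p below 0.05; 4.24%).

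Between conditions, the answer for most members turned on the 4 libraries numbered 3. Averaged over the 4 stages, 5 members were called with all 24 libraries, all lower under IL-33, and 38.1% of all genes were called. They were Atf3 (log2 -4.14 ± 0.74 SE, edgeR adjusted p = 0.00014), Fosl2 (-1.67 ± 0.26, 2.8e-05), Junb (-0.83 ± 0.22, 0.0053), Jun (-0.77 ± 0.24, 0.014) and Ier2 (-0.39 ± 0.15, 0.049). Egr1, at log2 1.13 ± 0.46 (SE), was not called (adjusted p = 0.058). With the set of libraries as a random block in limma-voom, Egr1 was called higher under IL-33 (log2 1.70, adjusted p = 0.0090) and Ier2 was not called (adjusted p = 0.080). With the library number as a fixed block in edgeR, Egr1 was also called higher (log2 1.66, adjusted p = 8.7e-05). That block matches same-numbered libraries of the 2 conditions, which did not pass a bar of 0.1 for deviating together in any stage. Their deviations correlated at -0.092 to 0.010 in stage I and -0.076 to -0.00030 in stage III. In stages II and IV they correlated at 0.031 to 0.068 and 0.050 to 0.072. The fixed block is therefore not read as further support. Since the members were chosen on high levels in 4 of the 12 steady state libraries, all values above from the 24 libraries carry that choice. The fit without them is not free of that choice, because high was judged against the other libraries, steady state numbers 1 and 2 included. Without the 4 libraries numbered 3, edgeR called 7 members (36.2% of all genes), 4 of them higher under IL-33. Egr1 was higher by log2 2.43 ± 0.37 (SE, adjusted p = 4.5e-05), Fosb by 1.43 ± 0.25 (0.00018), Fos by 0.53 ± 0.14 (0.0048) and Jund by 0.27 ± 0.09 (0.026). Fosl2 (-1.47 ± 0.26, 0.00024), Atf3 (-1.56 ± 0.39, 0.0039) and Junb (-0.32 ± 0.11, 0.030) remained lower. Jun (-0.21 ± 0.15, adjusted p = 0.27) and Ier2 (-0.13 ± 0.11, 0.42) were not called. The call of Ier2 with all libraries was also lost without any steady state library numbered 3 taken singly (adjusted p 0.097 to 0.138), and in other fits that left out a single library. In the random block fit without the libraries numbered 3, Egr1 (log2 2.57), Fosb (1.45), Fos (0.54), Fosl2 (-1.47), Atf3 (-1.72) and Junb (-0.32) were called and Jund was not. This fit was added after the data had been seen.

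**Figure D5:**
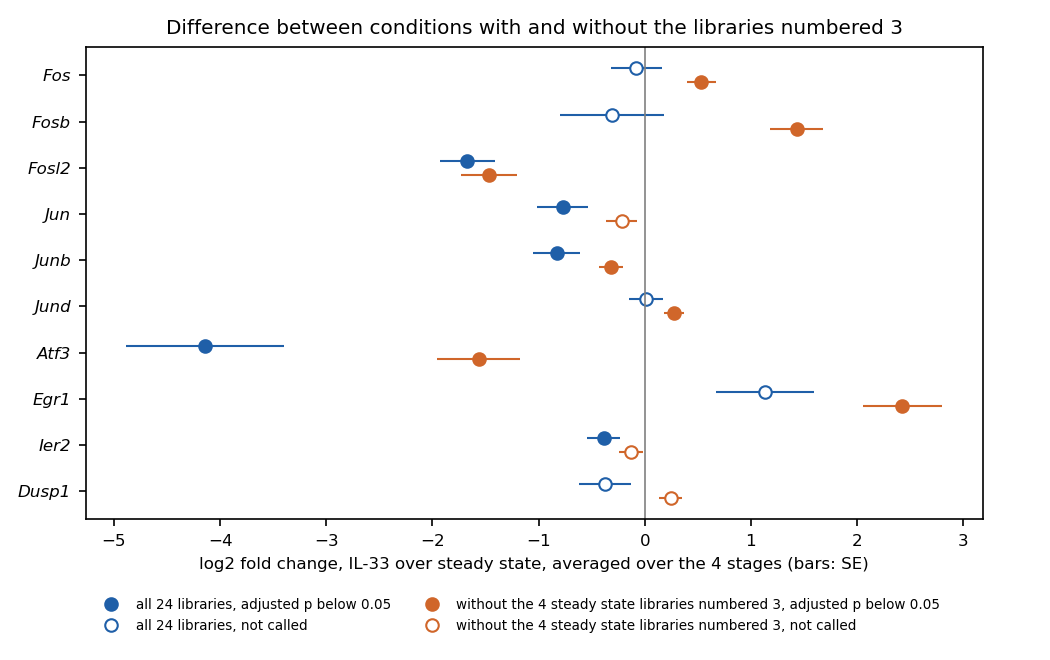
Log2 fold change of IL-33 over steady state averaged over the 4 stages, with SE bars, for each member with all 24 libraries (blue) and without the 4 steady state libraries numbered 3 (orange); filled points have an adjusted p below 0.05. Fosl2 stays near -1.5 in both, Atf3 moves from -4.14 to -1.56, and Fos, Fosb and Dusp1 lie on opposite sides of 0.

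By stage, edgeR called the most members between conditions in stage III, where it also called the largest share of all genes (33.4%). There, Egr1 stood at 42.7, 42.2 and 303 scaled CPM in steady state and at 401, 767 and 1128 under IL-33, with no overlap. It was higher under IL-33 by log2 2.56 ± 0.97 (SE, edgeR adjusted p = 0.045), and by 4.17 ± 0.82 (adjusted p = 0.00057) without the libraries numbered 3. The call with all libraries was lost without steady state number 1 or 2, or IL-33 number 2 or 3 (adjusted p 0.082 to 0.151). Fosl2 in stage III, at 77.7 to 124 in steady state and 9.78 to 21.6 under IL-33, was lower by log2 -2.69 ± 0.53 (SE, adjusted p = 0.00047), and by -2.76 without the libraries numbered 3. Junb in stage III, given above, was lower under IL-33 by log2 -1.51 ± 0.45 (SE, adjusted p = 0.013) and by -1.28 ± 0.22 without the libraries numbered 3. Its call was lost without steady state number 3 alone (adjusted p = 0.051) or IL-33 number 2 (0.066). Atf3 stood at 33.6, 51.9 and 503 in stage III of steady state and at 4.20, 6.57 and 4.89 under IL-33, again without overlap. It was lower by log2 -5.23 ± 1.57 (SE, adjusted p = 0.013), and by -3.03 ± 0.81 (adjusted p = 0.0062) without the libraries numbered 3. Leaving out steady state number 3 alone took its adjusted p to 0.113, and leaving out IL-33 number 1 to 0.052. With the random block in limma-voom and all libraries, Atf3 in stage III was not called (log2 -4.21, adjusted p = 0.075). In all, 4 members were called in stage III (33.4% of all genes), and 5 without the libraries numbered 3 (36.5%), which added Fosb, higher by log2 1.81. With all libraries the share of members called was near that of all genes.

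In the other stages fewer members were called. In stage I edgeR called 0 with all libraries (2 at an unadjusted p below 0.05, 0 by DESeq2; 4.06% of all genes) and 0 without the libraries numbered 3 (1 at an unadjusted p below 0.05; 4.07%). In stage II edgeR called 0 (2 at an unadjusted p below 0.05, 2 by DESeq2; 8.03%). Without the libraries numbered 3 it called Jund, at no more than 475 scaled CPM in the 2 steady state libraries and 875, 992 and 1102 under IL-33 (log2 1.01 ± 0.19 SE, adjusted p = 0.0025; 8.1% of all genes). In stage IV Fosl2 was lower under IL-33 (log2 -1.64 ± 0.51 SE, adjusted p = 0.036; 12.2% of all genes). That call was lost without the steady state library numbered 3 (adjusted p = 0.171) or any single IL-33 library of that stage (0.072 to 0.138). Without the 4 libraries numbered 3, Fosb was called in stage IV, higher under IL-33 by log2 2.08 ± 0.51 (SE, adjusted p = 0.011; 11.9% of all genes).

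Because libraries of a set may share mice or a sorting day, the mean log2 level over the 4 stages of each condition and number was also compared, 3 sets against 3. The exact two-sided permutation test of this size cannot go below p = 0.1. The sets did not overlap for 2 members, Fosl2 and Atf3, both lower under IL-33 (exact permutation p = 0.1), while sets of 42.4% of all genes did not overlap. Without the set numbered 3 of steady state, 7 members did not overlap (54.5% of all genes). Of these Egr1, Fosb, Fos, Jund and Dusp1 were higher under IL-33 and Fosl2 and Atf3 lower. For Egr1 the set means of log2 level were 5.77 and 7.20 for steady state numbers 1 and 2, 9.22 for number 3, and 8.47, 9.12 and 9.70 under IL-33. The steady state set numbered 3 thus lay within the IL-33 range for Egr1, whereas for Atf3 it lay far above, at 8.94 against 4.36 and 5.33 in the other steady state sets and 2.62 to 4.13 under IL-33.

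Counts for other genes of the pathway are read beside the 43.8% of all genes called from stage I to IV in steady state and the 44.1% under IL-33, in either direction. Of 30 tested other immediate early genes, 16 rose and 2 fell from stage I to IV in steady state, and 14 rose and 0 fell under IL-33 by edgeR. Mcl1, a survival factor of the BCL2 family, was 4.73-fold higher in steady state and 4.89-fold higher under IL-33, and Ier3 was 11.5-fold lower in steady state. Of 21 other AP-1 and related leucine zipper genes, 9 and 10 rose and 0 fell, shares close to those of all genes. Creb3 was 2.37-fold and 2.92-fold higher, and Nfil3, a repressor needed for several innate lineages, was 11.3-fold higher under IL-33. Of 26 MAP kinases and upstream factors, 10 rose and 1 fell in steady state and 11 rose and 0 fell under IL-33, with Mapk3, which encodes ERK1, 3.82-fold and 4.30-fold higher. With library totals as the scale the median of all genes shifts by log2 -0.37 in steady state and -0.30 with the cytokine, so these counts are relative to TMM. On that scale 12 and 13 other immediate early genes, 7 and 6 AP-1 and related genes and 6 and 9 MAP kinases and upstream factors rose in steady state and under IL-33, while 2 and 0, 1 and 2, and 3 and 0 of these lists fell. With TMM, Dusp5, a nuclear phosphatase of ERK, was 17.5-fold and 8.52-fold higher from stage I to IV in steady state and under IL-33. Without the libraries numbered 3, 18 and 21 of 31 other immediate early genes, 10 and 13 of 21 AP-1 and related genes and 8 and 14 of 26 MAP kinases and upstream factors rose, where 40.2% and 49.8% of all genes were called. Of 13 heat shock genes, 4 and 7 were lower and 0 higher (5 and 7 lower without those libraries), among them the mitochondrial chaperone gene Hspd1, 3.25-fold and 5.14-fold lower.

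Averaged over stages, 3 of 30 other immediate early genes were higher and 15 lower under IL-33 with all libraries, and 8 of 31 were higher and 10 lower without the libraries numbered 3. Of all genes, 38.1% and 36.2% were called in those fits. Their median changed from log2 -0.63 to 0.12. The split for other AP-1 and related genes was 1 higher and 7 lower with all libraries, and 1 and 6 without, of 21 tested, a share close to that of all genes. Atf5 was 5.68-fold higher and Nfe2l2, a regulator of antioxidant genes, 1.71-fold lower with all libraries, and Nfe2l2 was 1.67-fold lower without the libraries numbered 3. For genes of the ATF4 stress response, 6 of 12 were higher and 0 lower, with Asns, asparagine synthetase, 4.66-fold higher, and 7 higher without the libraries numbered 3.

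Markers of other cells moved with the same contrasts. All 14 neutrophil markers were lower under IL-33 averaged over stages, their sum being 6571 to 28914 scaled CPM in steady state and 2015 to 10933 under IL-33. Of 15 monocyte and macrophage markers, 10 were lower and 1 higher, with sums of 779 to 3307 and 863 to 3612. In that comparison 38.1% of all genes were called, in either direction. From stage I to IV 6 monocyte markers rose in steady state and 7 under IL-33, where 43.8% and 44.1% of all genes were called. Summed, they stood at 779 to 848 in stage I and 1721 to 1784 in stage IV of steady state, and at 863 to 949 and 3385 to 3612 under IL-33. Neutrophil markers summed to 6571 to 12972, 23748 to 28914, 19926 to 23860 and 11222 to 26723 in stages I to IV of steady state. Under IL-33 these sums were 4442 to 9818, 2015 to 4714, 2758 to 3994 and 6355 to 10933. In stage IV, eosinophil markers summed to 4573 to 8055 in steady state, below the neutrophil sums. Under IL-33 they summed to 21198 to 27415, above the neutrophil sums. No neutrophil or monocyte marker was at 0 in all libraries of either condition. Basophil and mast cell markers (10 genes, 2 of them at 0 in all libraries of each condition) summed to 374 to 525 in stage III of steady state and 2365 to 2507 under IL-33, and to 57.4 to 702 and 1824 to 2685 in stage IV. T and NK cell markers summed to 24.1 to 84.6 and 306 to 367 in stage III, and to 40.0 to 52.7 and 170 to 248 in stage IV. Megakaryocyte and platelet markers summed to 164 to 217 and 512 to 655 in stage III, and to 36.8 to 39.2 and 336 to 599 in stage IV. The sums of these 3 lists did not overlap between conditions in either stage, where 33.4% and 12.2% of all genes were called. In the T and NK cell list, Nkg7 reached 1180 in its highest library and no other marker more than 31.4. In the megakaryocyte and platelet list, Itga2b reached 652 and no other marker more than 9.25. These 2 sums therefore rest largely on 1 gene each. The part of any of these cells in the members' levels, the stage III differences of Egr1, Fosl2, Atf3 and Junb included, was not tested.

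For each of 4 members except Fos, the gene whose levels across libraries were most like its own changed when the libraries numbered 3 were left out. Likeness is Pearson's r of log2 levels over libraries that share stage, condition and set, so it is a description. Over all 24 libraries Fos was most like Klf6 (r = 0.952), an immediate early zinc finger gene, and Ppp1r15a (0.925), a stress-induced phosphatase subunit. Over the 20 other libraries the same pair led, at 0.919 and 0.891, followed by Il1rl1 (0.871), which encodes the IL-33 receptor ST2. Jun was most like Rel (0.892), an NF-kappaB subunit, over 24 libraries and like Spg11 (0.839) over 20. Atf3 was most like Ddx5 (0.927) and Ets2 (0.921) over 24 and like Pld4 (0.877) and Mpeg1 (0.853) over 20. Egr1 was most like Gla (0.750) over 24 and Slc39a4 (0.909) over 20.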

How the data were processed

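RNA of sorted cells was sequenced from 24 libraries. Per the labels' protocols, cDNA came from the SMART-Seq v4 kit and was tagged by Nextera XT. The deposited values are raw read counts per gene symbol, and the submitters' processing notes name STAR 2.6.1a, mm10 and DESeq2. How reads were counted, with which annotation and whether by strand, is not given in the sources used here. Entries for reads with no feature and for ambiguous reads (1.73% to 2.60% per library) stayed out of library sizes and tests. Replicates were grouped by the labels, and p-values measure only the spread between these libraries.

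The members, the other gene lists and the tests were chosen with earlier results of these data known. Counts were filtered with filterByExpr, scaled by TMM and fitted with edgeR 4.0.16 in R 4.3.3 as 1 quasi-likelihood model of 8 groups, with 14 comparisons and p-values adjusted over all genes by the Benjamini-Hochberg method. All adjusted p-values are edgeR's unless limma or DESeq2 is named. The fits were tested on simulated data. Alternatives were DESeq2 1.42.0, relative log expression size factors, library totals, no filter, leaving out the steady state libraries numbered 3 or any single library, the library number as a block, and limma-voom (limma 3.58.1) with the set as a random block. Set means, variance shares and likeness used log2(scaled CPM + 1), and ratio lists and likeness used genes averaging at least 20 CPM. Other genes were named by the smallest adjusted p, up to 4 per list and comparison, and some of these were left out of the text.

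Same-numbered libraries deviated together (every correlation of deviations above 0.1) between stages I and II (0.117 to 0.298), III and IV (0.112 to 0.216) and I and IV (0.120 to 0.185) of steady state, and between I and II (0.154 to 0.238) and II and III (0.131 to 0.243) under IL-33. In the other comparisons they did not pass that bar. The labels do not say that a number marks shared mice or a shared day.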

Additional observations from a re-analysis of the deposited data

Results flagged for a closer look

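Egr1, the zinc finger gene induced by MAP kinase signals, had mean changes of opposite sign between stages II and III in the 2 conditions. Neither step was called by edgeR without a block. With the library number as a block, edgeR called the steady state step lower (log2 -1.44 ± 0.42 SE, adjusted p = 0.0098). Same-numbered libraries did not pass the bar given above at that step. In steady state it went from 88.5 to 42.7 scaled CPM in the library numbered 1, from 185 to 42.2 in number 2 and from 817 to 303 in number 3. Under IL-33 it went from 292 to 401, from 764 to 767 and from 1013 to 1128. The mean log2 change was -1.54 in steady state and 0.21 under IL-33, a difference of 1.74. All 3 steady state numbers were lower in stage III and all 3 IL-33 numbers higher, number 2 only slightly. In the edgeR fit the step was log2 -1.49 ± 0.94 (SE, adjusted p = 0.23) in steady state and 0.15 ± 0.92 (SE, adjusted p = 1) under IL-33, and the difference between them was not tested.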

How the results depend on the processing

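Fosl2 and Atf3 rest on the fewest reads, where they lay near 1 scaled CPM. Directions of the called members from stage I to IV held under every alternative run. Leaving out the 4 steady state libraries numbered 3 changed the number of members called from 0 to 1 (steady state I to II), 0 to 2 (III to IV), 2 to 7 (IL-33 III to IV), 4 to 8 (IL-33 I to IV) and 0 to 1 (stage II between conditions), and the number whose set means did not overlap from 2 to 7. With the replicate block, where numbers pair the libraries only in the comparisons where same-numbered libraries deviated together, the counts were 3 (steady state I to II), 3 (III to IV), 6 (IL-33 III to IV), 8 (IL-33 I to IV) and, between conditions, 1 in stage I, 1 in stage II and 3 in stage IV. It changed no other count of calls by over 1.5 times. DESeq2 gave 1 in steady state I to II, 1 in III to IV, 2 in stage II and 2 in stage IV. With no filter there was 1 in stage II and 2 in stage IV, and with library totals 2 from II to III in steady state. The random block without the libraries numbered 3, added after seeing the data, gave 1 in stage I, 5 in stage II and 4 in stage IV. Leaving out single libraries gave 0 to 1 (steady state I to II), 2 to 5 (II to III), 0 to 1 (III to IV), 3 to 7 (I to IV), 1 to 2 (IL-33 III to IV), 2 to 4 (I to IV), 0 to 1 (stage II), 2 to 3 (stage III), 0 to 1 (stage IV) and 4 to 5 (average). In the remaining comparisons it gave 0 to 0. Directions between conditions reversed for members that were not called. Fosb in stage III (log2 -0.34) was 0.018 with library totals, 1.81 without the libraries numbered 3, 0.55 with the block, 0.77 with the random block and 2.09 with the random block without them, and -0.87 to 1.83 without single libraries. Fosb in stage IV (-0.60) was 2.08, 0.41, 0.78 and 2.05 under the last 4 settings in that order, and -1.19 to 2.12. On average over stages, Fos (-0.08) was 0.53, 0.085, 0.091 and 0.54, and -0.19 to 0.14. Fosb (-0.31) was 1.43, 0.40, 0.46 and 1.45, and -0.48 to 0.37. Jund (0.01) was -0.0330 with DESeq2 and -0.0330 with relative log expression, and -0.0394 to 0.15. Dusp1 (-0.38) was 0.25 without the libraries numbered 3 and 0.27 with the random block without them. The cause was not tested.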
